A study of Taeniopygia guttata with 2 samples.

Results

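The collagen, laminin and integrin genes of zebra finch Area X were all gene columns of the combined count table whose symbol begins with COL, a number, A and a digit, with LAMA, LAMB or LAMC and a digit, with ITGA and a digit, V or M, or with ITGB and a digit. They were 68 of 17430 gene columns: 36 collagen genes, 12 laminin genes, 17 integrin genes and 3 genes (ITGB1BP1, ITGB1BP2 and ITGB3BP) that the rule takes in through their symbols and that encode proteins binding the cytoplasmic tail of an integrin beta chain. No measured value was used to choose them. Area X is the striatal song nucleus of songbirds, and single nuclei were sequenced from it to ask what knockdown of FoxP2, a transcription factor, does to gene expression there. There were 2 libraries, 1 per condition. The library labelled shFoxP2 came from adult males that had received an adeno-associated virus carrying CS-shFoxP2, a Cre-switched construct in which a CAG promoter drives mCherry and hairpins against FoxP2, and no Cre was given. The library labelled shScr came from adult males that had received CS-shScr, the same construct with a scrambled hairpin. The labels give an age of 160 to 185 days post hatch in both groups, and the methods of the study a slightly later one. Area X punches of 2 birds were pooled in each library, infected and uninfected cells were not separated, and all birds came from reversed light cycles and were taken before the lights came on.

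Collagens are triple-helical matrix proteins that form fibrils, the sheet-like network of basement membranes, or membrane-bound chains at the cell surface. Laminins are trimers of an alpha, a beta and a gamma chain that build the other network of basement membranes, and in brain they are best known from the walls of blood vessels. Integrins are pairs of an alpha and a beta chain in the cell membrane that bind collagens, laminins and other ligands and couple them to the cytoskeleton.

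The combined table held 12956 shFoxP2 nuclei with 42662731 unique molecular identifiers (UMIs, counted transcript molecules) and 14289 shScr nuclei with 39179294 UMIs, at a median of 2871 and 2300 UMIs per nucleus. The authors had placed them in 23 joint clusters, grouped here into 10 cell classes. FOXP2 was not lower in the library labelled shFoxP2: its level was 5.02 UMIs per 10000 in all shFoxP2 nuclei and 4.31 in all shScr nuclei, and 5.85 (5.76 to 5.94) against 4.75 (4.66 to 4.83) in medium spiny neurons. The study reported the knockdown as lower FoxP2 protein in infected cells of Area X and in cultured cells. These counts are of nuclear RNA, introns included, from infected and uninfected cells together, so they do not measure that protein. The library is named by its label throughout. The labels call the cells striatal projection neurons, but medium spiny neurons were 64.8% of shFoxP2 and 67.6% of shScr nuclei, and the rest held glia, vessel cells, red blood cells and other neurons. Summed endothelial markers reached 25.4 UMIs per 10000 in shFoxP2 and 30.6 in shScr endothelial nuclei and at most 1.06 in any other class. The interneuron list was about as high in interneurons (9.58 in shFoxP2 and 11.2 in shScr) as in red blood cells (9.02 and 11.4), and the medium spiny list was almost as high in pallidal-like neurons (86.8 and 93.6, against 87.0 and 99.9 in medium spiny neurons). The libraries shared 47 cell barcodes, and possible doublets were kept. Levels below are a gene's UMIs per 10000 of all UMIs in a group of nuclei, and brackets hold 95% intervals of counting error only. With 1 library per condition no difference below has a replicate check, and none was tested.

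Together the 68 genes held 48689 UMIs in the shFoxP2 library and 39437 in the shScr library. Of these genes, 41 reached 200 UMIs over both libraries: 21 collagen, 7 laminin, 11 integrin and 2 integrin-binding genes. The other 27 shared 1600 UMIs and are given by their counts. The families differed in the class with the highest summed level. Laminin genes were densest in endothelial nuclei, at 11.2 (10.3 to 12.3) in shFoxP2 and 10.8 (9.67 to 12.1) in shScr, with astrocytes next at 4.04 and 3.51. Integrin genes were densest in oligodendrocyte precursors, at 21.8 (20.3 to 23.4) and 17.9 (16.6 to 19.4), and stood between 9.26 and 11.4 in oligodendrocytes, astrocytes and microglia of both libraries. Collagen genes were shared out more evenly, with 9.16 in shFoxP2 and 10.9 in shScr endothelial nuclei, 10.1 and 10.9 in interneurons, 8.01 and 6.46 in precursors, 7.64 and 5.77 in astrocytes and 6.45 and 6.6 in glutamatergic neurons. Medium spiny neurons, the main cell of Area X, had the lowest collagen and integrin sums of the neuron classes and the highest laminin sum of them: 1.69 and 1.38 for collagens, 2.27 and 2.39 for laminins, and 3.11 and 2.21 for integrins. Nucleated red blood cells, which should make little matrix, had 1.73 and 1.64, 2.04 and 1.67, and 2.74 and 2.22, close to the medium spiny values. The sums weigh genes by their UMIs, and without ITGA9 the log2 ratio of integrins in precursors over all other nuclei was 1.19 in shFoxP2 and 1.32 in shScr, against 2.23 and 2.28 with it.

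The same class had the highest level in both libraries for 30 of the 41 genes (73.2%), where 49.6% of all 11549 genes with as many UMIs had this. For 13 (31.7%) the leading class was also at least 2-fold above the next in both libraries, against 7.38% of all genes. These were COL11A1, COL19A1, COL21A1, COL23A1, COL25A1, COL8A1, COL8A2, ITGA1, ITGA9, ITGB5, ITGB8, LAMA4 and LAMB2. Astrocytes led for 8 genes (19.5%, against 5.23% of all genes), endothelial cells for 7 (17.1%, against 7.03%), precursors for 4 (9.76%, against 2.29%), interneurons for 4 (9.76%, against 4.84%), oligodendrocytes for 3 (7.32%, against 5.8%), microglia for 2 (4.88%, against 4.28%) and glutamatergic neurons for 2 (4.88%, against 2.69%). Medium spiny, pallidal-like and red blood cell classes led for none, where red blood cells led for 13.4%, medium spiny neurons for 2.46% and pallidal-like neurons for 1.54% of all genes. As all genes of these nuclei entered the clustering, the counts describe the classes and are no test.

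**Figure D1:**
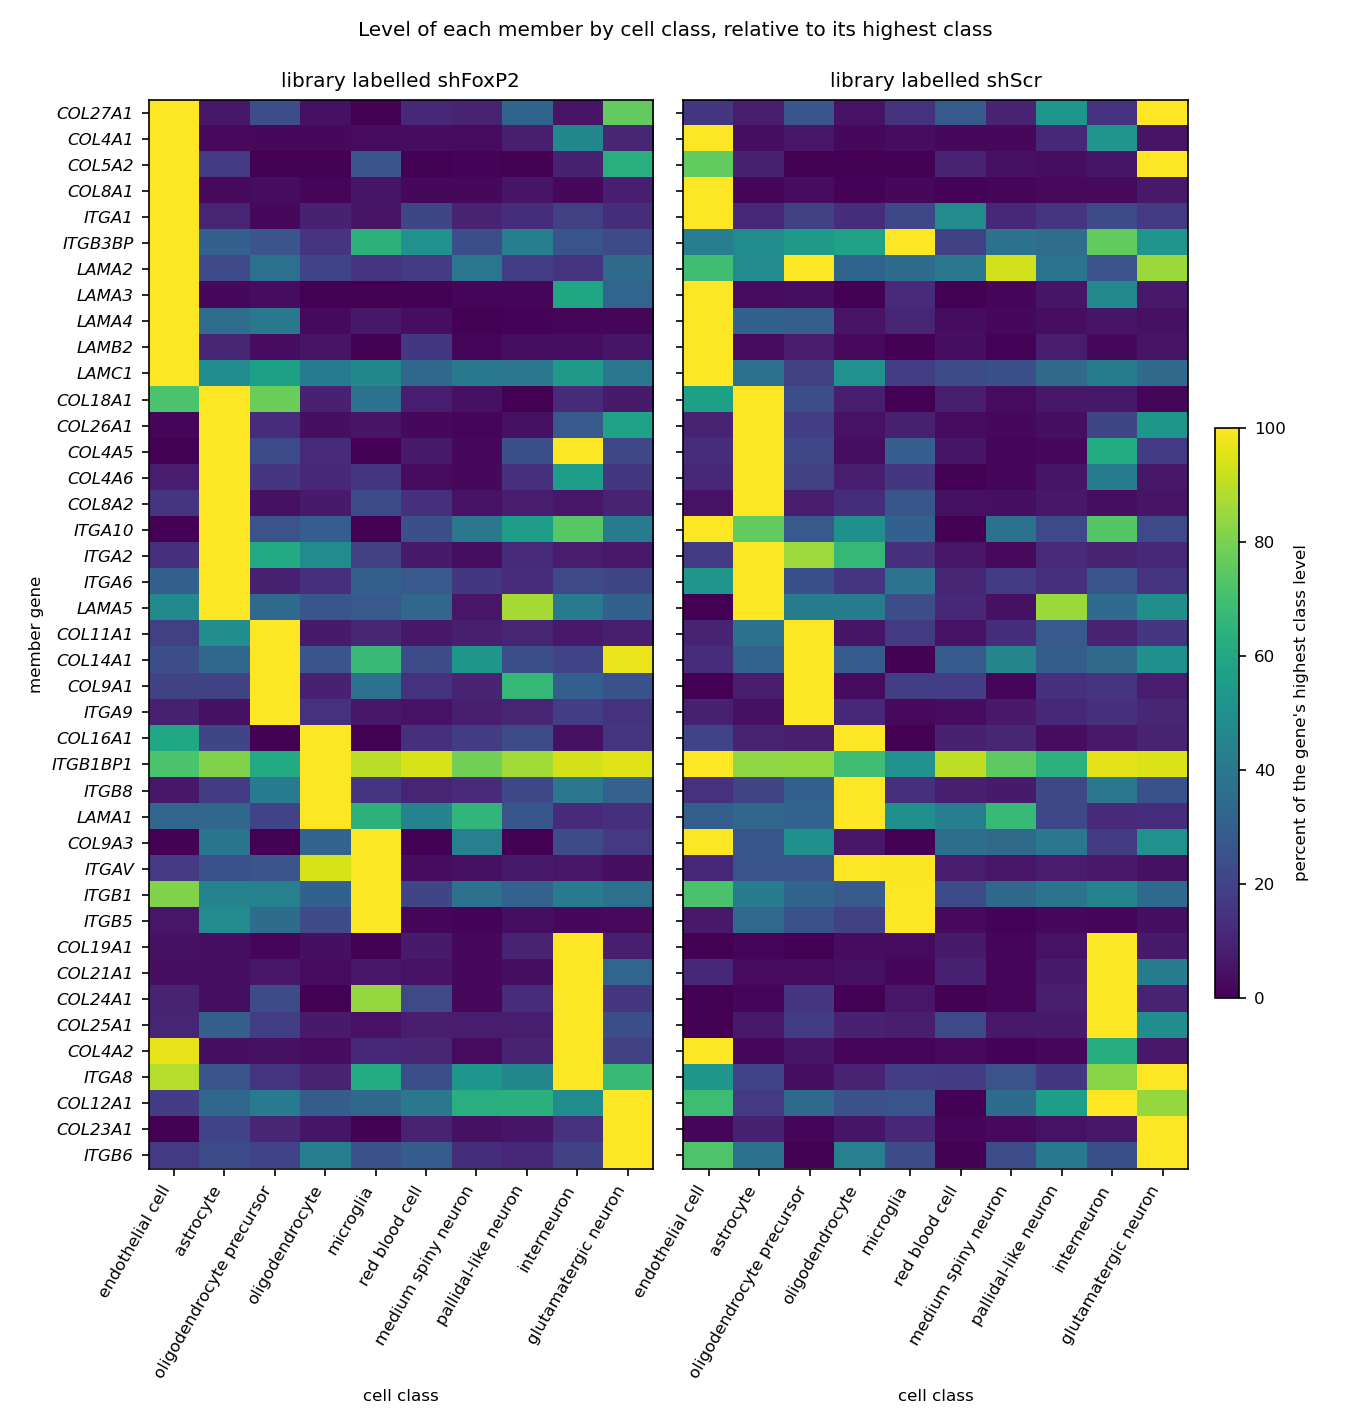
Level of the 41 genes with at least 200 UMIs (rows) in the 10 cell classes (columns), in the library labelled shFoxP2 at left and shScr at right. Colour gives the percent of the gene's highest class level in that library, and the bright cells fall in the same column in both panels for 30 genes.

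In vessels, the laminin chains of endothelial basement membranes were the clearest group. LAMA4, the alpha chain of endothelial laminins, had 6.32 (5.59 to 7.11) in shFoxP2 and 5.78 (4.95 to 6.71) in shScr endothelial nuclei. It made up 56.2% and 53.4% of their laminin UMIs. LAMB2, a beta chain, had 0.801 and 0.739 in endothelial nuclei and at most 0.131 in any other class. LAMA3, whose protein is best known from epithelial basement membranes, had 0.778 and 0.772 there, with interneurons next at 0.459 and 0.365. LAMC1, the gamma chain of most laminins, was broad: endothelial nuclei led with 1.01 and 1.18, and every other class had between 0.220 and 0.595. LAMA5, another alpha chain of vessels and epithelia, was low, led in astrocytes with 0.239 and 0.265, and had 5 UMIs in shFoxP2 and 0 in shScr endothelial nuclei. LAMA4 was not a vessel gene alone, since astrocyte cluster 6 had 3.86 and 3.44 and precursors 2.53 and 1.74.

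Of the network collagens, COL8A1, a short-chain collagen of vessel walls, had 2.4 (1.97 to 2.91) in shFoxP2 and 2.69 (2.13 to 3.34) in shScr endothelial nuclei and at most 0.199 in another class. After each nucleus was thinned to 1000 UMIs, 14.3% (8.55 to 21.9) of shFoxP2 and 14.8% (7.9 to 24.4) of shScr endothelial nuclei had a COL8A1 UMI (unthinned 24% and 28.6%). No thinned red blood cell had one, which allows up to 5.28% and 4.40%. For LAMA4 the thinned shares were 44.5% (35.4 to 53.9) and 32.1% (22.2 to 43.4) of endothelial nuclei, against 2.94% (0.358 to 10.2) and 3.66% (0.761 to 10.3) of red blood cells. Median depth was 1012 UMIs in shFoxP2 and 1170 in shScr endothelial nuclei, and 630 and 659 in red blood cells. Thinning left out 110 and 66 endothelial nuclei. ITGA1, an alpha chain of collagen receptors, also led in the endothelial cluster as a whole, with 1.26 and 1.01. This was at least 2-fold above every other class, with red blood cells next at 0.261 and 0.487.

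The endothelial cluster also held cells that read as vessel support cells. It had 229 shFoxP2 and 147 shScr nuclei. Over both libraries together, 180 had UMIs of the endothelial list only, 44 of the mural or fibroblast lists only, 137 of both and 15 of neither. LAMA4 did not separate the first 2 sets, with 5.38 in the endothelial-only nuclei and 5.12 in the mural or fibroblast-only nuclei. LAMA2, an alpha chain best known from muscle, had 0.198 and 2.89, and LAMC3, a rarer gamma chain, 0.066 and 1.58. LAMA3 went the other way, with 23 UMIs (0.759 per 10000) in the endothelial-only nuclei and 0 UMIs in the other set. COL4A1 had 1.65 and 3.42. COL8A1 had 2.04 (1.57 to 2.62) and 1.05 (0.454 to 2.07), and these intervals overlapped. Those of ITGA1 did too, at 0.429 (0.228 to 0.733) and 0.92 (0.37 to 1.89). Nuclei with UMIs of both lists had the most COL8A1, at 3.37 (2.78 to 4.06), and the most ITGA1, at 1.94 (1.5 to 2.47), and 7.05 of LAMA4. These nuclei could not be assigned to either cell type, and their median depth was 1398 UMIs. It was 947.5 in the endothelial-only and 1048.5 in the mural or fibroblast-only nuclei. Whether COL8A1 or ITGA1 sets endothelial apart from support cells was thus left unresolved. The mural or fibroblast-only set held 76114 UMIs in all, so values in it rest on 7 to 39 UMIs for these genes other than LAMA3.

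LAMA1, the alpha chain of the first laminin described, differed widely between clusters of medium spiny neurons. Oligodendrocytes led among classes with 2.17 (1.88 to 2.49) in shFoxP2 and 2.13 (1.85 to 2.44) in shScr, and medium spiny neurons had 1.42 and 1.43. The study proposes that medium spiny neurons of Area X may fall into direct-like, indirect-like and mixed classes, with connectivity still to be characterised. DRD2, a dopamine receptor gene of the indirect-like class, separated the clusters. Cluster 1 had 4.04 DRD2 UMIs per 10000 in shFoxP2 and 3.74 in shScr, and cluster 2 had 0.169 and 0.196. FOXP2 lay the other way round, with 0.508 and 0.441 in cluster 1 and 10.3 and 8.04 in cluster 2. LAMA1 had 3.53 (3.41 to 3.66) and 3.09 (2.97 to 3.2) in cluster 1, above every other cluster of either library. It had 0.092 and 0.216 in cluster 2 and 0.024 and 0.0926 in cluster 4, the other cluster high in FOXP2. Cluster 3, also high in DRD2, had only 0.494 and 0.62, so LAMA1 split the 2 clusters that DRD2 joins. Cluster 5, where both pathway genes were present, had 1.75 and 1.72, and 21.6% of its shFoxP2 and 25.9% of its shScr nuclei were possible doublets.

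The log2 ratio of LAMA1 in cluster 1 over cluster 2 was 5.26 (4.93 to 5.61) in shFoxP2 and 3.84 (3.62 to 4.06) in shScr. For LAMA2 it was 4.47 (3.94 to 5.06) and 4.30 (3.87 to 4.77). COL11A1, a fibrillar collagen, was higher in cluster 1 too, at 1.19 (0.95 to 1.43) and 1.42 (1.19 to 1.66). COL12A1, a collagen that decorates fibrils, ran the other way, at -1.40 (-1.73 to -1.09) and -2.13 (-2.78 to -1.53). LAMC1, the gamma chain with which both alpha chains can assemble, hardly separated the clusters, at 0.31 (0.10 to 0.53) and 0.02 (-0.25 to 0.28). After thinning, 26% (24.4 to 27.6) of shFoxP2 and 24.4% (23 to 25.8) of shScr nuclei of cluster 1 had a LAMA1 UMI, against 0.695% (0.419 to 1.08) and 2.05% (1.62 to 2.56) in cluster 2. Unthinned shares were 52.6% and 46.5% in cluster 1 and 2.48% and 4.25% in cluster 2. Red blood cells had LAMA1 in 11.8% (5.22 to 21.9) and 8.54% (3.5 to 16.8) of thinned nuclei, above cluster 2. The share over all medium spiny neurons, 10.8% (10.1 to 11.4) and 11.4% (10.8 to 12.1), lay within the intervals of red blood cells and was not read as expression over the whole class.

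**Figure D2:**
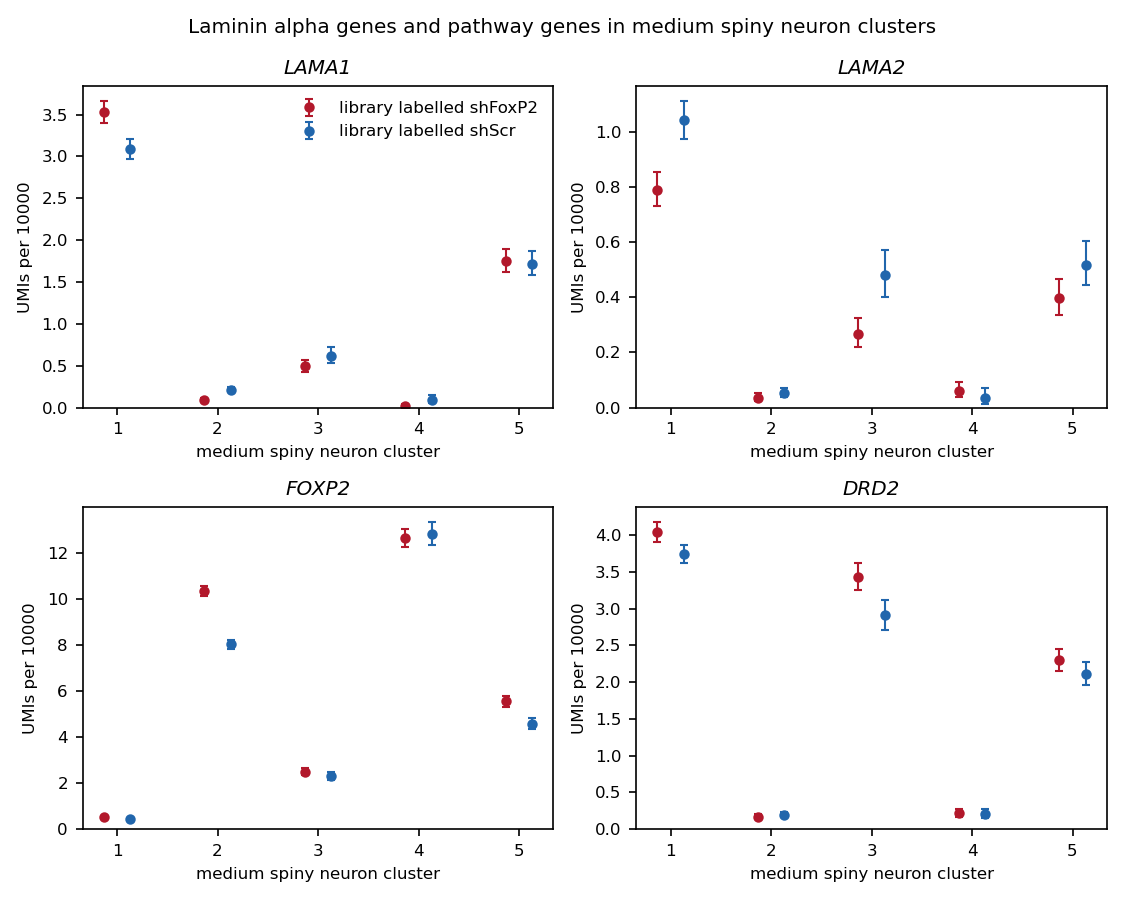
Levels of LAMA1, LAMA2, FOXP2 and DRD2 in UMIs per 10000 (vertical axes) in medium spiny neuron clusters 1 to 5 (horizontal axes), with 95% counting intervals. Red is the library labelled shFoxP2 and blue is shScr, and both laminin genes peak in cluster 1, where DRD2 is high and FOXP2 is low.

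Basement membrane collagen was not confined to vessels. COL4A1 and COL4A2 encode the chains of the main type IV collagen trimer. In endothelial nuclei COL4A1 had 2.33 (1.9 to 2.83) in shFoxP2 and 2.75 (2.19 to 3.42) in shScr, and COL4A2 had 1.17 (0.869 to 1.53) and 2.55 (2.01 to 3.19). Interneuron cluster 17, the cluster with the highest LHX6, reached 3.6 (3.11 to 4.15) and 4.57 (3.97 to 5.25) for COL4A1 and 3.07 (2.61 to 3.58) and 4.13 (3.56 to 4.77) for COL4A2. Both genes were thus higher in cluster 17 than in endothelial nuclei of the same library, and they were present in 6 more interneuron clusters and near absent from the CHAT cluster 23 (0 and 0.103 for COL4A1). Thinned nuclei with a COL4A1 UMI were 29.6% (22.8 to 37.1) of shFoxP2 and 38.3% (30.9 to 46.2) of shScr nuclei in cluster 17 (unthinned 58.6% and 64.7%), against 2.94% (0.358 to 10.2) and 0% (0 to 4.4) of red blood cells. Possible doublets were 0.592% of the shFoxP2 and 0% of the shScr nuclei of cluster 17. Cluster 21, which is part of the interneuron sums, had the most of any cluster, at 55.8% and 50%. Another type IV pair, COL4A5 and COL4A6, had another pattern: astrocyte cluster 6 had 0.597 and 0.956 of COL4A5 and 1.36 and 1.19 of COL4A6, and interneuron cluster 18 had 0.882 and 0.998 of COL4A5 and 0.882 and 0.707 of COL4A6. Over whole classes, COL4A5 had 0.362 and 0.527 in astrocytes and 0.362 and 0.324 in interneurons.

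Of the 8 fibril-associated collagens and multiplexins with enough UMIs, COL19A1 and COL21A1 led in interneurons in both libraries. COL14A1 and COL9A1 led in precursors, COL16A1 in oligodendrocytes and COL18A1 in astrocytes, and COL12A1 and COL9A3 had no shared leading class. The COL14A1 lead was slight in shFoxP2, with 0.681 in precursors and 0.661 in glutamatergic neurons, and was 0.534 against 0.268 in shScr. COL9A1 was low in precursors, at 0.354 in shFoxP2 and 0.337 in shScr. COL19A1, which mouse interneurons need for inhibitory synapses, had 1.49 in shFoxP2 and 2.08 in shScr interneurons and at most 0.152 in any other class. Within them it was highest in cluster 17, at 5.51 (4.9 to 6.18) and 6.58 (5.85 to 7.38). The SST, NPY and NOS1 cluster 16 was next with 3.12 and 3.32, and cluster 18 had 0.145 and 0.166. Clusters 17 and 18 were both rich in CCK, with 14 and 19.7 in cluster 17 and 19.2 and 21.7 in cluster 18. COL21A1 had 2.2 and 2.01 in interneurons and 0.72 and 0.842 in glutamatergic neurons. It was flatter, with 3.28 and 2.9 in cluster 17 and 3.08 and 3.06 in cluster 13. Clusters 13 and 14 had the most PVALB of the interneuron clusters. COL24A1, a fibrillar collagen, had at most 19 UMIs in any other class of either library and had 0.832 (0.62 to 1.09) in shFoxP2 and 2.53 (2.18 to 2.93) in shScr nuclei of cluster 16, and these intervals did not overlap. The CHAT cluster 23, with 44 shFoxP2 and 32 shScr nuclei, had 2.8 (2.22 to 3.49) and 4.18 (3.32 to 5.2) of COL25A1, a transmembrane collagen found in amyloid plaques in human brain. Cluster 16 followed in shFoxP2 with 2.27 (1.91 to 2.68), an interval that overlaps that of cluster 23, and cluster 13 in shScr with 1.82 (1.56 to 2.12), below that of cluster 23. Cluster 23 also had the highest ITGA8 of the interneuron clusters, an alpha chain for ligands with an RGD motif, at 2.52 (1.97 to 3.17) and 3.46 (2.68 to 4.39).

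**Figure D3:**
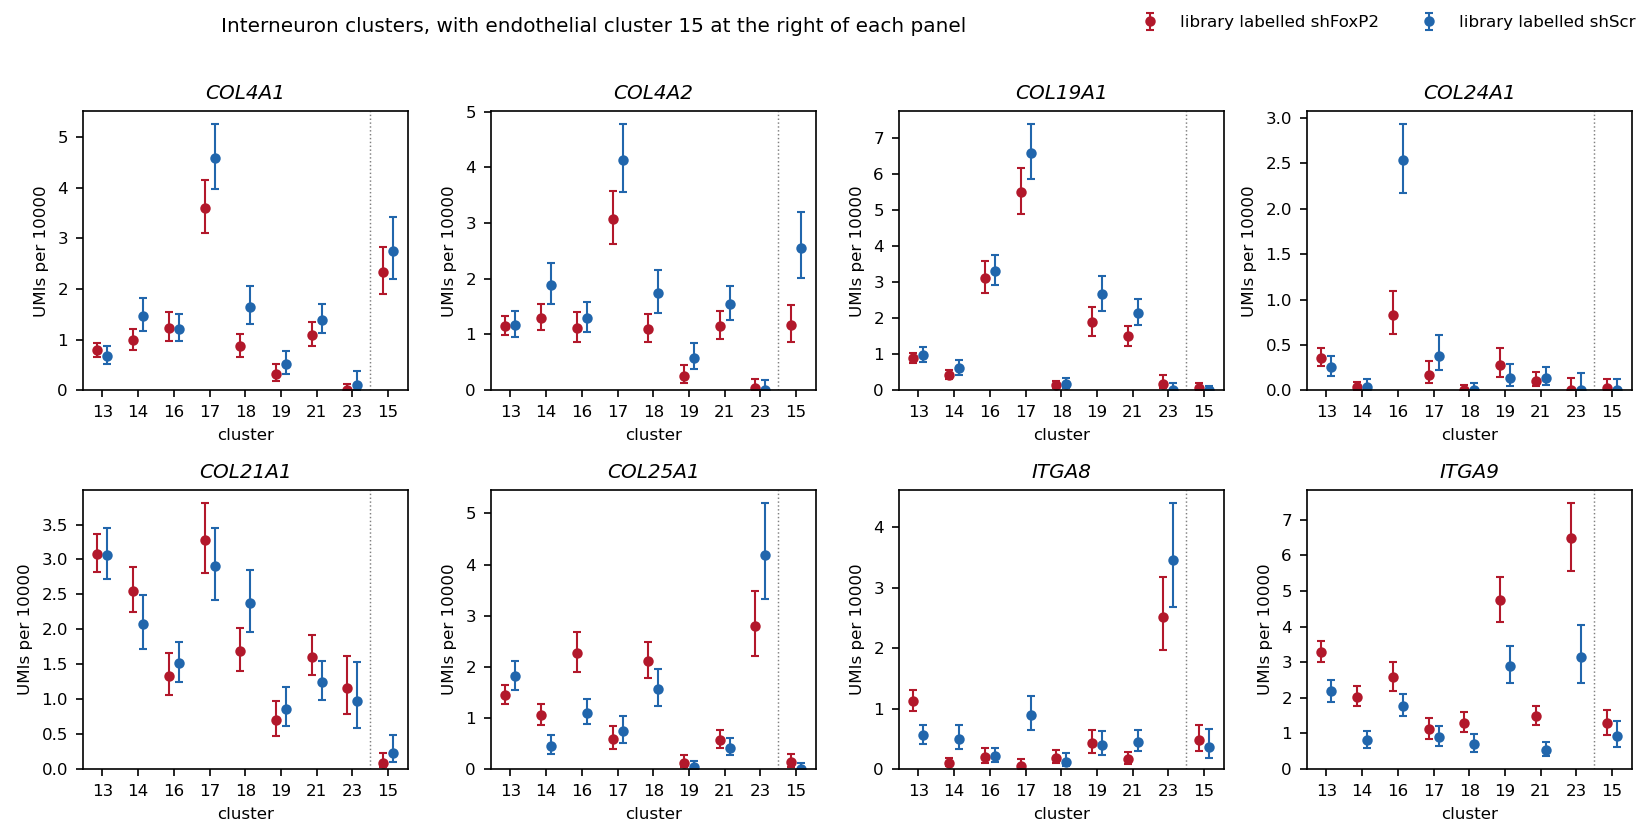
Levels of 8 genes in UMIs per 10000 (vertical axes) in the 8 interneuron clusters and, right of the dotted line, endothelial cluster 15 (horizontal axes), with 95% counting intervals. Red is the library labelled shFoxP2 and blue is shScr, and COL4A1 and COL4A2 in cluster 17 lie above endothelial cluster 15 in both libraries.

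The glutamatergic clusters were told apart by COL23A1, another transmembrane collagen. Cluster 10 had 2.06 (1.85 to 2.29) in shFoxP2 and 4.51 (4.16 to 4.89) in shScr, whereas cluster 9 had 0.094 and 0.0646. In thinned nuclei of cluster 10 the shares with a COL23A1 UMI were 15.8% (12.2 to 19.9) and 33.9% (28.9 to 39.3), against 2.05% (0.669 to 4.72) and 0.429% (0.052 to 1.54) in cluster 9 (unthinned 29.7% and 53.8%, and 3.64% and 2.52%). COL27A1, a fibrillar collagen, did the reverse, with 0.423 and 0.355 in cluster 9 and 2 and 2 UMIs in cluster 10. COL5A2, a chain of the collagen that starts fibrils, was low everywhere and had 0.159 and 0.309 in glutamatergic and 0.252 and 0.235 in endothelial nuclei. ITGB6, a beta chain that pairs with ITGAV, led in glutamatergic neurons with 0.27 and 0.139.

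In glia the integrin chains did not all lead in the same class. ITGA9, an alpha chain that pairs with ITGB1 and binds tenascin C, had 14.5 (13.3 to 15.8) in shFoxP2 and 10.8 (9.79 to 12) in shScr precursors, with interneurons next at 2.62 and 1.52. In thinned precursors 78% (69.7 to 84.8) and 69.5% (60.8 to 77.2) had an ITGA9 UMI (unthinned 96.1% and 88%), against 5.88% (1.63 to 14.4) and 6.1% (2.01 to 13.7) of red blood cells, at median depths of 1883 and 1691 UMIs in precursors. Oligodendrocytes, the cells that precursors give rise to, had 2.11 and 1.22 and instead led for ITGB8, a beta chain that with ITGAV activates latent TGF-beta, at 3.52 (3.15 to 3.92) and 3.99 (3.61 to 4.41). ITGA2, the alpha chain of a collagen receptor, led in astrocytes with 5.04 and 3.96, less than 2-fold above precursors (3.08 and 3.37). Within astrocytes it had 8.26 (7.76 to 8.78) and 7.55 (7.0 to 8.13) in cluster 6 and 3.22 and 2.46 in cluster 7. It was also present in oligodendrocytes (2.44 and 2.63). ITGA6, the alpha chain of a laminin receptor, led in astrocytes with 1.5 and 1.16. ITGB5, which with ITGAV binds vitronectin, led in microglia with 3.85 (2.92 to 4.98) and 4.53 (3.82 to 5.33), and astrocytes followed with 1.85 and 1.54. ITGAV itself was highest in microglia (1.66 and 1.16) and oligodendrocytes (1.56 and 1.17).

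ITGB1, the beta chain shared by most matrix integrins, was flat beside its partners, from 0.235 in shFoxP2 red blood cells to 1.23 in shScr microglia. ITGB1BP1, whose product binds the tail of that chain, was flatter, between 0.22 and 0.446 in all classes. ITGB3BP and ITGA10, a further alpha chain of collagen receptors, stayed at or below 0.206 and led in no class in both libraries. Among collagens of glia, COL11A1 led in precursors, with 4.96 (4.26 to 5.73) and 3.68 (3.08 to 4.37), and made up 61.9% of the shFoxP2 and 57.0% of the shScr collagen UMIs there. Astrocytes had 2.42 and 1.39 of it. COL8A2, partner of COL8A1, was split from it by class: astrocytes had 0.587 and 0.702 of COL8A2 and 0.0633 and 0.0351 of COL8A1. COL26A1, a collagen with an EMI domain, had 1.3 and 1.06 in astrocytes. COL18A1, the basement membrane collagen that yields endostatin, had 0.351 and 0.354 there, and COL16A1, a fibril-associated chain, had 0.191 and 0.333 in oligodendrocytes.

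Genes whose products assemble with each other did not always share clusters. Across the 23 clusters, which share library and depth within a condition, Pearson's r of COL4A1 with COL4A2 was 0.95 in shFoxP2 and 0.98 in shScr (Spearman's rho 0.91 and 0.88), and that of COL4A5 with COL4A6 was 0.89 and 0.95 (rho 0.88 and 0.89). The genes of each of these pairs are neighbours in the zebra finch RefSeq annotation. ITGAV and ITGB5, which are not neighbours, had an r of 0.78 and 0.78 (rho 0.73 and 0.40), and LAMA4 and LAMC1 0.64 and 0.68 (rho 0.38 and 0.38). ITGA9 and its obligate partner ITGB1 had an r of -0.08 and -0.08 (rho -0.28 and 0.02). LAMA2 and LAMC1 had 0.38 in shFoxP2 and -0.21 in shScr (rho 0.13 and -0.37). Other pairs were computed too, some with chains under 200 UMIs. In shFoxP2 their r ran from -0.003 for ITGA8 with ITGB1 to 0.81 for COL6A1 with COL6A2. In shScr it ran from 0.07 for COL6A2 with COL6A3 to 0.80 for COL9A1 with COL9A2. These are descriptions of clusters, not of independent samples.

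Between the libraries, the log2 ratio of shFoxP2 over shScr in all nuclei had a median of 0.09 over the 41 genes and 0.01 over all 11549 genes. It was at least 0.5 for 7 genes (17.1%, against 8.17% of all genes) and at most -0.5 for 3 (7.32%, against 7.98%). It was at least 1 for 2 (4.88%, against 2.07%) and at most -1 for 1 (2.44%, against 2.17%). COL9A1, a chain of the fibril-associated collagen of cartilage, was highest at 1.58 (1.20 to 1.97), from 244 UMIs in shFoxP2 and 75 in shScr. COL12A1 had 1.08 (0.92 to 1.25), with 995 and 431 UMIs. COL4A6 had 0.87 (0.69 to 1.06), LAMB2 0.73 (0.32 to 1.15), ITGA9 0.73 (0.67 to 0.78), LAMA3 0.63 (0.40 to 0.86) and COL14A1, a relative of COL12A1, 0.54 (0.42 to 0.66). The LAMB2 value came from 139 UMIs in shFoxP2 and 77 in shScr. In endothelial nuclei, its leading class, LAMB2 had 0.801 and 0.739. Its interval lay above 0 in 0 of the 3 clusters with at least 20 UMIs. COL9A3, the partner chain of COL9A1, was the lowest at -1.18 (-1.54 to -0.84), from 104 UMIs in shFoxP2 and 217 in shScr, so 2 chains of the same trimer lay on opposite sides. COL5A2 had -0.94 (-1.32 to -0.56) and COL24A1 -0.79 (-1.07 to -0.51). With the cluster shares held fixed, LAMA3 came to 0.41 and COL4A6 to 0.71, and the other 8 genes stayed past 0.5. By family, the integrin sum had a log2 ratio of 0.33 (0.30 to 0.36), or 0.17 (0.13 to 0.20) without ITGA9, the collagen sum 0.16 (0.13 to 0.19) and the laminin sum -0.02 (-0.06 to 0.02).

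**Figure D4:**
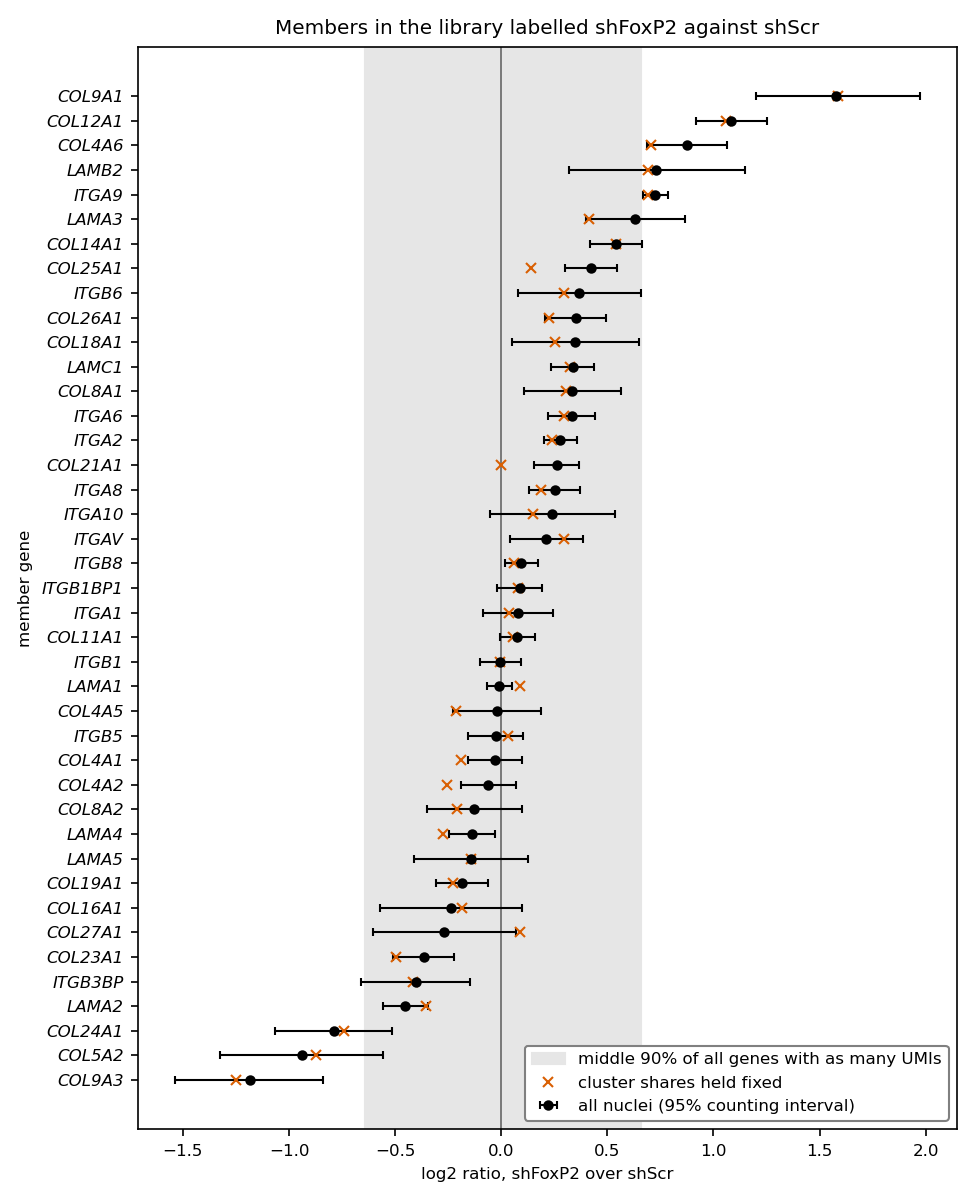
Log2 ratio of each of the 41 genes, shFoxP2 over shScr (horizontal axis), in all nuclei with 95% counting intervals (black) and with cluster shares held fixed (orange crosses). The grey band holds the middle 90% of all 11549 genes with as many UMIs, and COL9A1, COL12A1, COL4A6, LAMB2 and ITGA9 lie beyond its upper edge and COL9A3, COL5A2 and COL24A1 beyond its lower edge.

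ITGA9 was the most even of these differences. It had 1.22 in shFoxP2 and 0.728 in shScr medium spiny neurons, 2.62 and 1.52 in interneurons, 2.12 and 1.17 in glutamatergic neurons and 2.11 and 1.22 in oligodendrocytes. The ratio was above 0 in 23 of 23 clusters, and its interval lay above 0 in 18. The red blood cells were among these clusters, at 1.00 (-0.02 to 2.11) from 28 and 12 UMIs, with an interval that includes 0. The lowest value was 0.27 (-0.13 to 0.67) in the pallidal-like cluster 12 and the highest 1.72 (0.41 to 3.11) in microglia, from 14 and 9 UMIs.

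Medium spiny neurons held 24 of the genes with at least 200 UMIs, and 9 of these were at least 0.5 higher in shFoxP2 (37.5%, against 9.11% of all genes there). They were COL12A1 at 1.53 (1.30 to 1.75), ITGA2 at 0.81, ITGA9 at 0.75, COL8A1 at 0.68, ITGA8 at 0.67, COL14A1 at 0.57, ITGB8 at 0.56, COL21A1 at 0.52 and LAMC1 at 0.51. The intervals of these 9 lay above 0. LAMA4 at -1.58 (-1.91 to -1.25) and COL9A3 at -0.99 (-1.41 to -0.59) were the 2 genes at least 0.5 lower (8.33%, against 9.1% of all genes). LAMA2 was just short of that at -0.50 (-0.62 to -0.38). Of the 9 genes, only ITGA9 had a level whose interval lay above that of red blood cells in both libraries, at 1.22 (1.18 to 1.27) in shFoxP2 and 0.728 (0.695 to 0.762) in shScr medium spiny neurons, against 0.732 (0.486 to 1.06) and 0.365 (0.189 to 0.638) in red blood cells. The intervals of the other 8 overlapped those of red blood cells or lay below them in at least 1 library. COL12A1 had 0.248 (0.229 to 0.267) and 0.0859 (0.0749 to 0.0982), against 0.157 (0.0576 to 0.341) from 6 UMIs and 0 (0 to 0.112) from 0 UMIs in red blood cells. The medium spiny marker list was also high in red blood cells, at 63.1 in shFoxP2 and 77.9 in shScr. It had 87.0 and 99.9 in medium spiny neurons. Overlap with red blood cells therefore cannot tell free RNA from expression in these genes. The part of free RNA in these ratios was not tested. COL9A1, the highest over all nuclei, had only 0.0341 and 0.00594 in medium spiny neurons and COL9A3 0.029 and 0.0578, within or below the intervals of red blood cells. LAMA4 had 0.0392 and 0.117, below the 0.235 and 0.183 of red blood cells. LAMA1, with 3920 shFoxP2 and 3617 shScr UMIs, had a ratio of -0.01 (-0.08 to 0.06) over the class. The clusters of the class differed in direction for LAMA1. Its level was 3.53 in shFoxP2 and 3.09 in shScr nuclei of cluster 1, and 0.024 and 0.0926 in cluster 4. Cluster 2 had 75 shFoxP2 and 184 shScr UMIs of LAMA1.

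In interneurons, 3 of 23 genes were at least 0.5 higher in shFoxP2 (13%, against 3.67% of all genes): COL4A6 at 0.97 (0.65 to 1.30), ITGA9 at 0.78 (0.65 to 0.92) and COL26A1 at 0.70 (0.35 to 1.06). LAMA4 at -1.91 (-2.39 to -1.45) and COL24A1 at -1.18 (-1.49 to -0.87) were lower (8.7%, against 6.45%). Most of the COL24A1 gap lay in cluster 16, at -1.61 (-2.08 to -1.15) from 51 and 181 UMIs. In glutamatergic neurons COL14A1 at 1.30 (0.92 to 1.69) and ITGA9 at 0.86 (0.67 to 1.05) were higher (2 of 14, or 14.3%, against 4.51%). There, ITGA8 at -0.94 (-1.29 to -0.59), COL25A1 at -0.79 (-1.18 to -0.41), COL23A1 at -0.57 (-0.76 to -0.38) and LAMA2 at -0.55 (-0.96 to -0.15) were lower (28.6%, against 6.68%). Cluster 10 held 374 of 621 shFoxP2 and 333 of 810 shScr glutamatergic nuclei. Within cluster 10 alone COL14A1 had 1.63 (1.05 to 2.25), COL23A1 -1.13 (-1.33 to -0.94), COL25A1 -1.40 (-1.81 to -1.01) and ITGA8 -1.83 (-2.55 to -1.15). LAMA2 lay mostly in cluster 9, which held 247 shFoxP2 and 477 shScr nuclei. Its levels were 0.677 in shFoxP2 and 0.711 in shScr in cluster 9, and 0.073 and 0.0912 in cluster 10. LAMA2 thus differed less within each cluster than over the class.

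Astrocytes had 17 of the genes with enough UMIs. COL11A1 at 0.80 (0.63 to 0.97), with 2.42 in shFoxP2 and 1.39 in shScr, and COL4A6 at 0.55 (0.28 to 0.82) were at least 0.5 higher (11.8%, against 5.93% of all genes). COL4A5, which encodes the partner chain of COL4A6, was lower at -0.54 (-0.89 to -0.20) (5.88%, against 4.58%), with 0.362 and 0.527. COL11A1 was higher in both astrocyte clusters, at 0.66 (0.43 to 0.90) in cluster 6 and 0.77 (0.53 to 1.02) in cluster 7. COL4A6 had 1.36 in shFoxP2 and 1.19 in shScr nuclei of cluster 6, and a wider relative gap in cluster 7, with 0.586 and 0.339. In cluster 7, 28.3% of shFoxP2 and 21.8% of shScr nuclei were possible doublets, and FOXP2 had 4.36 and 3.99 and GAD2, a neuronal gene of GABA synthesis, 3.9 and 5.3. Their part in these ratios was not tested. ITGA2 at 0.35 (0.24 to 0.46), ITGA6 at 0.37 (0.17 to 0.57) and LAMA4 at 0.33 (0.18 to 0.49) were smaller differences, also higher in shFoxP2. ITGA2 had 8.26 in shFoxP2 and 7.55 in shScr in cluster 6, and 3.22 and 2.46 in cluster 7. In oligodendrocytes ITGA9, at 0.79 (0.46 to 1.13), was 1 of 5 genes past 0.5 (20%, against 4.49%). The 3 genes with enough UMIs in precursors, ITGA9 at 0.42, COL11A1 at 0.43 and ITGA2 at -0.13, lay within 0.5. In microglia (65 shFoxP2 and 184 shScr nuclei) ITGB5 had -0.23 (-0.70 to 0.22), and in pallidal-like neurons ITGA9 had 0.27 (-0.13 to 0.67). In endothelial nuclei only LAMA4 had enough UMIs, at 0.13 (-0.15 to 0.41). COL4A2, with 51 shFoxP2 and 76 shScr endothelial UMIs, stayed under the minimum, and its level there was 1.17 against 2.55.

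Several genes differed between clusters in the direction of their ratio. LAMA4 was lower in shFoxP2 in 15 of the 20 clusters with at least 20 UMIs over both libraries, with 12 intervals below 0, and had 2 shFoxP2 against 50 shScr UMIs in cluster 5, at -4.85 (-7.93 to -2.92). In its main cells it was not lower: the ratio was 0.16 in astrocyte cluster 6, 0.29 in cluster 7, 0.13 in endothelial cluster 15 and 0.54 in precursors. COL9A1 was higher in 8 of 8 clusters and COL9A3 in 0 of 7, although each had at most 57 UMIs in a cluster. ITGA8 had -3.97 (-6.31 to -2.32) in cluster 17, from 3 and 40 UMIs, and 1.00 (0.55 to 1.48) in cluster 13, from 180 and 51. COL25A1 had 3.55 (2.27 to 5.21) in astrocyte cluster 6, from 80 and 5 UMIs, and -0.58 (-1.04 to -0.11) in the CHAT cluster 23. COL12A1 was higher in the 5 medium spiny clusters, between 0.79 and 2.32, and lower in cluster 17 at -1.78 (-2.82 to -0.84). LAMA1 was higher in 11 of 19 clusters, with ratios from -1.95 to 1.64. Its interval lay above 0 in 2 clusters and below 0 in 3.

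**Figure D5:**
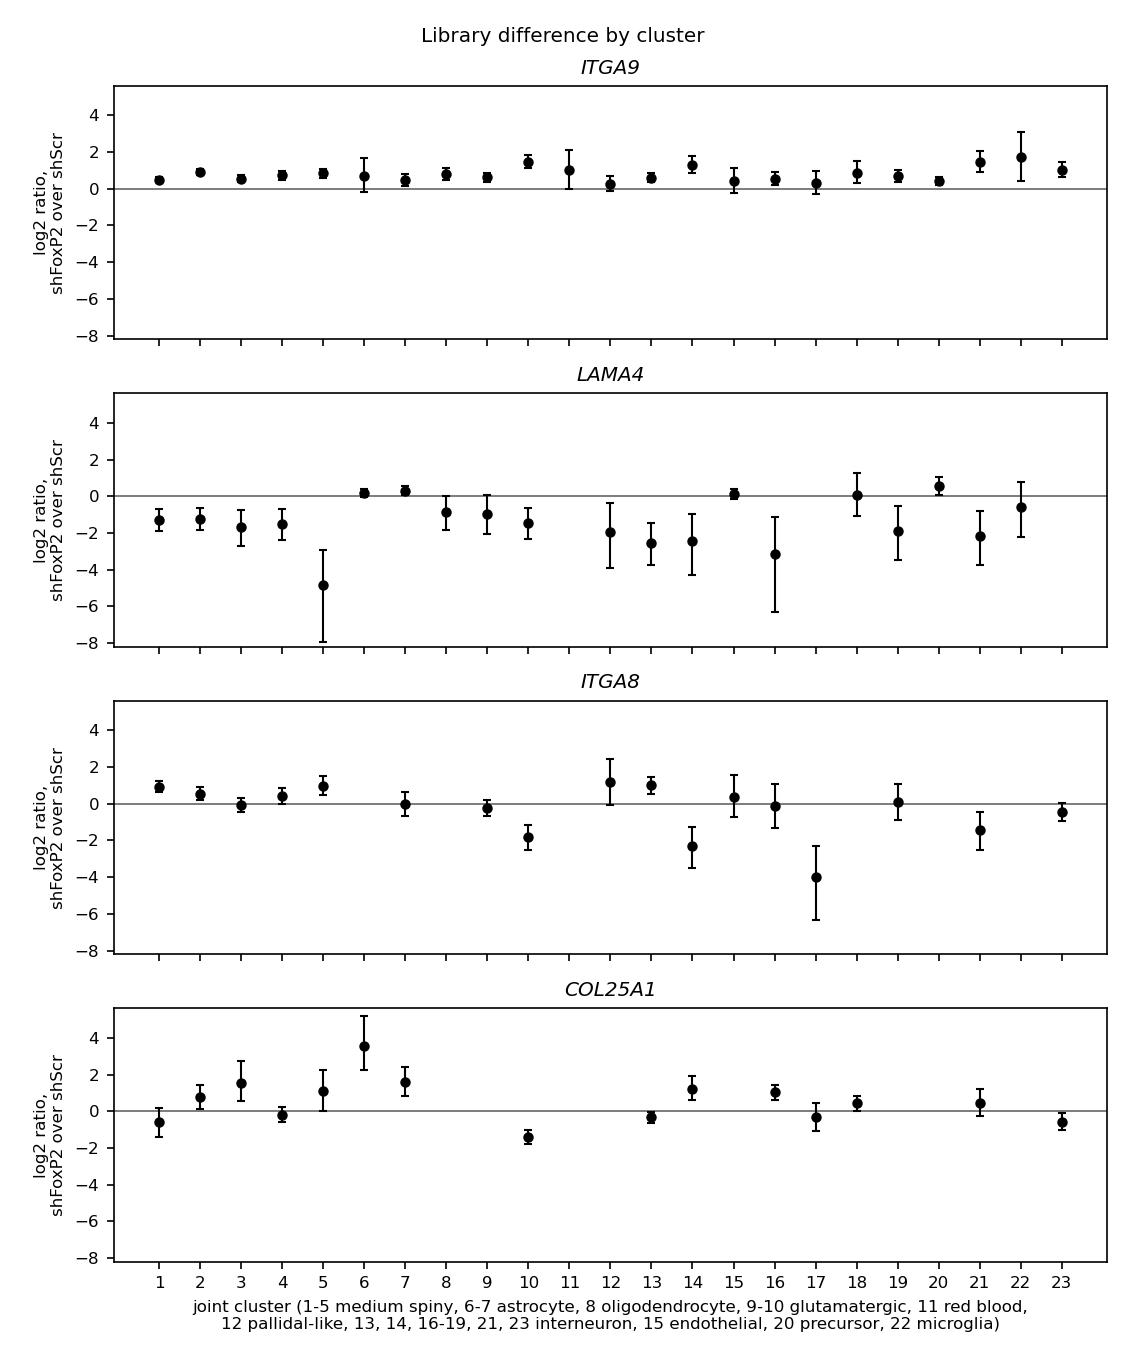
Log2 ratio, shFoxP2 over shScr (vertical axes), of ITGA9, LAMA4, ITGA8 and COL25A1 in each joint cluster with at least 20 UMIs (horizontal axis), with 95% counting intervals. ITGA9 lies above 0 in all 23 clusters, LAMA4 lies below 0 in 15 of 20, and the other 2 genes scatter on both sides.

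The 27 genes under 200 UMIs included chains that are common in other tissues. COL1A2 and COL3A1, of the main fibrils of connective tissue, had 21 and 18 UMIs in shFoxP2 and 33 and 21 in shScr. The chains of the microfibril collagen were as low, with 17 and 17 for COL6A1, 20 and 40 for COL6A2, and 37 and 45 for COL6A3. LAMB1, a widespread beta chain, had 27 and 34 UMIs, of which 4 and 12 lay in the endothelial cluster. Over both libraries, 0 of these were in its endothelial-only nuclei and 12 in nuclei with UMIs of both lists. Most LAMC3 UMIs lay in the endothelial cluster (23 of 39 in shFoxP2 and 28 of 54 in shScr). Over both libraries, only 2 of these were in its endothelial-only nuclei. The mural or fibroblast-only nuclei held 12 and those with UMIs of both lists 36. For ITGB3, a beta chain of vessels and platelets, 26 of 128 and 12 of 54 UMIs lay in the endothelial cluster. ITGB2 and ITGA4, of leukocyte integrins, had 5 and 6 and 3 and 12 microglial UMIs, from totals of 8 and 17 and of 21 and 39. ITGA11 had 51 UMIs in shFoxP2 and 12 in shScr. Others were COL4A3 (32 and 10), COL4A4 (50 and 32), COL7A1 (51 and 31), COL9A2 (87 and 77), COL13A1 (16 and 20), COL15A1 (37 and 19), COL17A1 (3 and 5), COL20A1 (41 and 30), COL22A1 (35 and 36), COL28A1 (4 and 4), ITGA2B (9 and 3), ITGB1BP2 (0 and 1), ITGB4 (39 and 37), LAMB3 (1 and 1) and LAMB4 (66 and 62).

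Other genes of matrix and adhesion were taken from 4 lists, whose counts stand beside 8.17% higher, 7.98% lower and 7.03% led by endothelial nuclei over all genes. Of 13 other matrix proteins, 12 were in the table and 10 had enough UMIs, and of these 1 was at least 0.5 higher in shFoxP2 and 0 lower. That gene was VTN, which encodes the ligand vitronectin, at 0.57 (0.45 to 0.69). The endothelial cluster led for 4 of them in both libraries, including FN1, the gene of fibronectin (3.0 in shFoxP2 and 3.56 in shScr). Another was NID1, the gene of nidogen, which links laminin to type IV collagen (1.26 and 1.14). Over both libraries, FN1 had 0.363 in the endothelial-only nuclei of that cluster. It had 5.26 in the mural or fibroblast-only nuclei and 5.49 in those with UMIs of both lists. NID1 had 0.033, 3.42 and 1.79 in the same order, so neither value stands for endothelial cells alone. Of 23 collagen-modifying enzymes and inhibitors, 19 were in the table, 11 had enough UMIs, 1 was higher and 0 were lower. PCOLCE2, which helps to cut collagen precursors, was the 1 at 0.76 (0.65 to 0.86). Of 17 integrin adaptors and kinases other than the genes above, 15 had enough UMIs and 2 were higher, PXN (paxillin) at 1.03 (0.72 to 1.35) and FERMT1 (a kindlin) at 0.61 (0.31 to 0.92), and BCAR1 was lower at -0.74 (-0.90 to -0.59). Of 14 other matrix receptors, 11 were in the table and 9 had enough UMIs, with 0 past 0.5 in either direction. Endothelial nuclei led in both libraries for 2 of those 11 enzymes and inhibitors, 2 of the 15 adaptors and 0 of the 9 receptors. The median ratios of the 4 lists were 0.06, -0.09, 0.03 and 0.07, beside 0.01 over all genes.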

How the data were processed

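Single-nucleus RNA sequencing (10x Genomics, 3′ chemistry) of Area X was analysed for 2 libraries, 1 per condition. The authors counted UMIs with Cell Ranger against exons and introns and deposited whole-number counts with no normalization, with the cluster of each nucleus, for nuclei of at most 10000 UMIs and 5% mitochondrial UMIs. Per the methods of the study, reads were aligned to the zebra finch assembly bTaeGut1_v1.p. Library codes were matched to the labels through the deposited table of the shScr library alone, whose 14289 nuclei had identical counts in the combined table.

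Clusters were the authors', grouped into classes by the names of the study and checked against marker lists. Of the listed markers, 9 of 9 endothelial, 7 of 8 mural and 6 of 9 fibroblast genes had a gene column. Their sums were 25.4, 10.7 and 2.56 in shFoxP2 endothelial nuclei and 30.6, 10.4 and 2.82 in shScr ones. In their own classes, shFoxP2 before shScr, the astrocyte list had 92.4 and 91.7, the oligodendrocyte list 74.1 and 79.8, the precursor list 21.7 and 17.2, the microglia list 9.23 and 17.5, the red blood cell list 531 and 612, the pallidal list 14.6 and 15.1 and the glutamatergic list 2.35 and 2.06.

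Levels, log2 ratios (genes with at least 200 UMIs in the nuclei summed, called at 0.5 in either direction, a sum of 0 set to 3) and shares after thinning to 1000 UMIs were computed in Python 3.11.15 (pandas 2.3.3, scipy 1.17.1, numpy 2.4.6), and plots were drawn with matplotlib 3.10.9. Intervals are exact at the 95% level (Poisson for sums, binomial for ratios, Clopper-Pearson for shares). Nuclei of 1 library are not replicates, so intervals cover counting error only and no test was made. The ratio code was tested on simulated data. Thinning left out 531 shFoxP2 and 626 shScr nuclei. Doublet scores came from Scrublet in scanpy 1.11.5. Its own threshold called 2 shFoxP2 and 0 shScr nuclei, so the nuclei with the highest 8% of scores (1036 and 1143) were taken as possible doublets and left out in an alternative. The other alternatives were nuclei of at least 1000 UMIs, means over nuclei, other UMI minimums, fixed cluster shares, the clusters of the shScr table alone, ratios relative to the median of all genes, sums without the gene of most UMIs, and no clusters 5 and 7.

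Genes named with values were the 4 with the most UMIs in each role group, the 3 that stood highest over the next class in each class they led, the 3 largest ratios in each direction in all nuclei, medium spiny neurons, astrocytes and endothelial cells, and genes past a ratio of 1. Others named were chosen after their values were seen. The genes, lists and rules were chosen with earlier results of these data known. Gene names and neighbours came from RefSeq (assembly bTaeGut7.mat, 67 of 68 symbols matched), and no coordinates or sequences were used. The values of 1 gene are not reported here.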

Additional observations from a re-analysis of the deposited data

Results flagged for a closer look

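For 6 of the 41 genes, the counting interval of the log2 ratio of shFoxP2 over shScr lay above 0 in 1 class and below 0 in another. This was 14.6% of them, against 6.14% of all 11549 genes. Among genes with enough UMIs in at least 2 classes it was 6 of 24 (25%), against 10.2% of 6969. With 1 library per condition the difference between classes was not tested, and the intervals cover counting error only. COL11A1 had 0.80 (0.63 to 0.97) in astrocytes and -0.47 (-0.82 to -0.13) in glutamatergic neurons. ITGA8 had 0.67 (0.50 to 0.84) in medium spiny neurons and -0.94 (-1.29 to -0.59) in glutamatergic neurons. COL25A1 had 0.47 (0.20 to 0.74) and -0.79 (-1.18 to -0.41), and ITGA2 had 0.81 (0.59 to 1.03) and -0.42 (-0.81 to -0.03), in the same 2 classes. ITGA2 differed less within each glutamatergic cluster than over that class. Its levels were 0.658 in shFoxP2 and 0.668 in shScr in cluster 9, and 0.134 and 0.152 in cluster 10. COL25A1 had 0.405 in shFoxP2 and 0.458 in shScr in cluster 4, its highest medium spiny cluster. That cluster held 1082 of 8393 shFoxP2 and 778 of 9657 shScr medium spiny nuclei. Other clusters of the class differed in direction, with 25 and 39 UMIs in cluster 1 and 55 and 34 in cluster 2. Over all nuclei its ratio was 0.42, and 0.14 with cluster shares held fixed. ITGB8 had 0.56 (0.43 to 0.70) in medium spiny neurons and -0.39 (-0.66 to -0.13) in astrocytes. In medium spiny clusters 4 and 3, where ITGB8 was highest, it was not higher in shFoxP2. Cluster 4 had 0.591 in shFoxP2 and 0.595 in shScr, and cluster 3 had 0.483 and 0.517. The rest of the class was higher, with 339 and 219 UMIs in cluster 1, 308 and 179 in cluster 2, and levels of 0.355 and 0.19 in cluster 5. LAMA4 had 0.33 (0.18 to 0.49) in astrocytes, where its level was high, and -1.91 (-2.39 to -1.45) in interneurons, where 53 shFoxP2 and 148 shScr UMIs were counted and the levels of 0.0888 and 0.333 lay below or near those of red blood cells (0.235 and 0.183).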

How the results depend on the processing

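No paired analysis was possible because each condition was 1 library, and leaving out a replicate was not possible for the same reason. No gene past 0.5 and no class sum changed direction in any alternative. The log2 level of summed laminins in endothelial nuclei over all other nuclei was 2.29 in shFoxP2 and 2.20 in shScr. For shFoxP2 it was 2.14 in nuclei with at least 1000 UMIs, 2.46 after thinning, 2.54 as a mean over nuclei and 3.15 without LAMA1, and for shScr 2.40 after thinning and 3.05 without LAMA1. Summed collagens in endothelial nuclei had 1.29 in shFoxP2 (1.13 with at least 1000 UMIs, 1.46 thinned, 1.65 as a mean over nuclei) and 1.70 in shScr (1.98 as a mean, 1.93 without COL11A1). In interneurons they had 1.86 in shFoxP2 (1.93 without possible doublets, 2.20 without COL11A1) and 2.16 in shScr (2.35 thinned, 2.25 without possible doublets, 2.28 as a mean, 2.53 without COL11A1). Summed integrins in precursors had 2.23 in shFoxP2 (2.52 thinned, 2.67 without possible doublets, 2.54 as a mean, 1.19 without ITGA9) and 2.28 in shScr (2.71, 2.40, 2.56 and 1.32 in the same order).

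At a minimum of 1000 UMIs per gene the same class led in both libraries for 19 of 25 genes (76%, against 53.7% of all genes), beside 30 of 41 at 200. The lead was at least 2-fold for 20 of 57 genes at a minimum of 50 (35.1%, against 8.74%), beside 13 of 41. Genes at least 0.5 higher in shFoxP2 were 7 of 41, against 11 of 41 after thinning (where the share over all genes was 10.4%), 12 of 57 at a minimum of 50 UMIs (21.1%, against 10.8%) and 4 of 25 at 1000 (16%, against 5.17%). Genes at least 0.5 lower were 3 of 41, against 7 of 57 at a minimum of 50 (12.3%, against 9.98%) and 0 of 25 at 1000 (against 5.24%). At a threshold of 1 there were 2 higher and 1 lower. Thinning added COL18A1, COL25A1, COL27A1, COL8A1, ITGA10 and LAMA2 to the genes past 0.5 and dropped COL24A1, means over nuclei added COL25A1, COL8A1 and ITGA10, and fixed cluster shares dropped LAMA3. Leaving out clusters 5 and 7, and ITGA9 from the integrin ratio between libraries, was chosen after seeing the data, and leaving out the clusters added or dropped no gene. Of 84 recomputed values of the main comparisons, 34 moved beyond their counting interval or by over 1.5 times for a count, and of 412 others, 37 did. At this depth, endothelial, precursor and microglial nuclei held too few UMIs of most of these genes to compare the libraries.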

Other observations

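Genes of other matrix proteins, outside the collagens, laminins and integrins, differed between cell classes as well. EFEMP1, which encodes a fibulin of elastic fibres, had 5.63 UMIs per 10000 in shFoxP2 and 5.21 in shScr endothelial nuclei, and 0.490 and 0.365 in precursors. TIMP3, which encodes an inhibitor of matrix proteases, had 1.79 and 2.12 in endothelial nuclei. AGRN, the gene of agrin, a heparan sulfate proteoglycan of basement membranes, was spread over precursors (6.67 and 6.97), astrocytes (6.60 and 6.33) and endothelial nuclei (5.22 and 5.61). SPARC, which encodes a collagen-binding protein, had 7.41 in shFoxP2 and 11.9 in shScr precursors and 4.76 and 8.56 in endothelial nuclei. TNR, the gene of the tenascin of perineuronal nets, had 2.48 and 2.42 in precursors. These are values of 1 library per condition, and no difference between them was tested.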
